A study of Mus musculus with 24 samples.

Results

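The 10 genes described here encode the collagen IV chains, laminin chains and nidogens of the basement membrane: Col4a1, Col4a2, Col4a5, Col4a6, Lama1, Lama5, Lamb1, Lamc1, Nid1 and Nid2. They were chosen by name from the 15736 genes of the count table, of which 15522 carry a symbol. All 10 were in the table and all 10 passed the filter on low counts in every exposure. The RNA came from otocyst epithelium of mouse embryos, the layer that later forms the inner ear. Control pools (con) were Rosa26rtTA/+, and experimental pools (R2b) were Rosa26rtTA/+;Tg(tetO-s(dn)Fgfr2b)/+. Both genotypes carry the doxycycline-dependent activator rtTA at the broadly expressed Rosa26 locus, and both received doxycycline, by injection of the mother at 1.5 mg/kg and then in chow at 200 mg/kg. Only the R2b pools carry the tetO-driven transgene, which encodes FGFR2b as a soluble, dominant-negative fragment that is secreted and binds FGF ligands outside the cell. Because the activator is not limited to the otocyst, the soluble receptor could have been made by other tissues of the embryo as well. Doxycycline began at embryonic stage E9.75 and lasted 12 hours in the 12-hour exposure (label E9.75+12h). It began at E9.25 and lasted 24 hours in the early exposure (label E9.25+24h), so tissue of both was collected at E10.25. In the late exposure (label E10.25+24h) it lasted 24 hours from E10.25, and tissue was collected at E11.25. A library is a pool of otocysts of 1 genotype from 1 litter. The labels list 4 litters in each exposure. In the 12-hour exposure the pools of litter 4 matched no column of the count table. Analysed were thus 3 litters of the 12-hour exposure and 4 of each other exposure, which gave 22 libraries of 18.7 to 28.2 M counts. The p-values measure the spread between these pools.

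A basement membrane is the thin sheet of matrix on which an epithelium rests. Laminins, trimers of an alpha, a beta and a gamma chain, assemble first at the cell surface and bind integrins and dystroglycan, and collagen IV trimers form a covalent network that gives the sheet its strength. Nidogens connect the laminin and collagen IV layers. Col4a1 and Col4a2 chains join in the common trimer of nearly all basement membranes, and Col4a5 and Col4a6 chains belong to trimers of restricted distribution. In the developing inner ear, basement membrane of the otic epithelium is remodelled as the vesicle changes shape.

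The collagen IV genes lie head to head in pairs with the starts of both partners close together, so the 2 pairs of promoter windows are shown before the values. RefSeq windows on GRCm38.p6, from 250 bases before to 50 after the gene start, were given for 7 of the 10 members. Those of Lama1, Lamc1 and Nid2 were not among them. In the windows of Col4a1 (chr8:11312777-11313076, minus strand) and Col4a2 (chr8:11312555-11312854, plus strand), capitals mark the 78 bases that both windows contain, read on opposite strands.
Col4a1: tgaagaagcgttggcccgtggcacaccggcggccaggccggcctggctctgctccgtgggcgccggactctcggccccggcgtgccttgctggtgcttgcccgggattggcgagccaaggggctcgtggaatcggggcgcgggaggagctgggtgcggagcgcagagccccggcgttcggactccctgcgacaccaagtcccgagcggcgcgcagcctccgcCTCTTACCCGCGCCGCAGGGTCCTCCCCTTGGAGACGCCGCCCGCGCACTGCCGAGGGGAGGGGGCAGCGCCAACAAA
Col4a2: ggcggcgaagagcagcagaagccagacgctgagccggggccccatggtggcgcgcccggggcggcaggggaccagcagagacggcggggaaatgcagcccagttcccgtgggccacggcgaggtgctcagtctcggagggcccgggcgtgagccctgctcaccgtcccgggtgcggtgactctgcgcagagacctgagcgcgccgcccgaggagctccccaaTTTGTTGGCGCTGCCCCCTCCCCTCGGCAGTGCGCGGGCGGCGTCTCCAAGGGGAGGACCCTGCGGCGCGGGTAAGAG
In the windows of Col4a6 (chrX:141474027-141474326, minus strand) and Col4a5 (chrX:141475169-141475468, plus strand), capitals mark the match to the GC box GGGCGG, searched on both strands.
Col4a6: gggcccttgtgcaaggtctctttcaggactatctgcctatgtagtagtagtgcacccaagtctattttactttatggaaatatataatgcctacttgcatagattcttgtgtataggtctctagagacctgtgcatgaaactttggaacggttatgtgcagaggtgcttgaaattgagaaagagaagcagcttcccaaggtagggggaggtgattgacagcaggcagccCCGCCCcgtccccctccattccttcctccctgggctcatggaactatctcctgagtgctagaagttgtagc
Col4a5: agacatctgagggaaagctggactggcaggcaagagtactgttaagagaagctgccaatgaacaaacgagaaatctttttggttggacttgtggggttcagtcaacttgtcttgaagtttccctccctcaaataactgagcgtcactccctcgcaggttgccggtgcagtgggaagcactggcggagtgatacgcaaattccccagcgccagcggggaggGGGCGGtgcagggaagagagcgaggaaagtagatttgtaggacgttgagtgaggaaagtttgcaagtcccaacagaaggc
The Col4a1 and Col4a2 windows had 74.0% and 73.7% G and C, against a median of 52.7% over all 32851 windows. Those of Col4a6 and Col4a5 had 48.3% and 52.7%. In the GENCODE M21 annotation the 5′ ends of Col4a1 and Col4a2 overlap by 22 bases, and the starts of Col4a6 and Col4a5 are 1308 bases apart. All 7 windows held at least 1 GC box, which 35.7% of all windows held. CCAAT was found in 5 of the 7 (37.4% of all windows), TATAAA in none (13.6%) and the ETS motif CCGGAAGT in none (3.89%). The CTC box, searched as CCCTCCCCC or CCCTTCCCC, was found in the windows of Lama5 and Nid1 (6.96% of all windows). A match describes the letters of a window and is no evidence of a bound factor.

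Before the results, 2 properties of the libraries have to be given. In the 12-hour exposure and the early exposure, Ighg1, which encodes the immunoglobulin constant region that is part of the transgene's product, stood at 1 to 36 counts in con and 19414 to 76096 counts in R2b libraries. Fgfr2, from which the transgene derives, stood at 127 to 165 CPM in con and 747 to 1927 CPM in R2b there. In the late exposure these genes did not follow the labels. The libraries labelled con held 15754, 28, 5106 and 16 Ighg1 counts in litters 1 to 4, and those labelled R2b held 1504, 25248, 23658 and 19155. In litter 1 the library labelled con thus had more transgene reads than the library labelled R2b, and the library labelled con of litter 3 had them too. Fgfr2 of litter 1 was likewise higher under the con label, 879 against 313 CPM. All libraries were kept under their labels, and results of that exposure are given with and without these litters. Litter 4 of the early exposure stood apart in cells of other types: 12 mesenchyme markers summed to 1482 CPM in con and 1367 CPM in R2b there, against 102 to 513 CPM in the other 6 libraries of the exposure. The 12 otic epithelium markers were all detected in every library, with sums of 2166 to 7500 CPM, and 4 were called higher and 1 lower in the 12-hour exposure and 2 higher and 3 lower in the early one. Their sum was higher in R2b in 3 of 3 litters of the 12-hour exposure (log2 ratio 0.02 to 0.36) and in 4 of 4 of the early exposure (0.31 to 0.49), where members rose too, and its part in their rise was not tested. None of the 9 blood and 5 hindbrain markers tested was called in any exposure, but with the litter as a block 2 blood markers were called lower in the early exposure. In such bulk samples, fewer cells of a type and less RNA per cell cannot be told apart.

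In the con pools the common collagen IV chains were by far the more abundant. Per kb of exon, Col4a1 (chromosome 8, 11198423 to 11312826, minus strand, GRCm38) stood at 58.3 ± 6.36 CPM (SD, n = 3) and Col4a2 (chromosome 8, 11312805 to 11449287, plus strand) at 52.5 ± 5.76 CPM (SD, n = 3) in the 12-hour exposure. Col4a5 (chromosome X, 141475385 to 141689234, plus strand) stood at 6.04 ± 0.841 CPM and Col4a6 (chromosome X, 141165403 to 141474076, minus strand) at 2.24 ± 0.0843 CPM per kb. As shares of the summed collagen IV chains these were 49.0%, 44.1%, 5.09% and 1.89%. The other collagen IV genes, Col4a3 and Col4a4, were not among the genes of the table. In that exposure the ranges of Col4a1 and Col4a2 per kb overlapped, and the other steps of the order did not. In the early exposure the con order was the same, at 80.8 ± 6.11, 58.7 ± 2.05, 9.63 ± 1.30 and 3.46 ± 0.519 CPM per kb (SD, n = 4), with no overlap between neighbours. In the libraries labelled con in the late exposure it was 72.6 ± 4.58, 56.1 ± 7.36, 14.6 ± 2.90 and 2.94 ± 0.427 CPM per kb (SD, n = 4), again with no overlap. Exposure and sequencing request cannot be told apart, so levels of different exposures were not tested against each other.

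Among laminin chains, Lama5 was the leading alpha chain of the con pools, and Lamb1 and Lamb2 shared the beta position. Lama5 (chromosome 2, 180176373 to 180225859, minus strand) encodes the alpha chain typical of epithelial basement membranes and stood at 13.5 ± 1.38 CPM per kb in con in the 12-hour exposure (SD, n = 3). Lama1 (chromosome 17, 67697259 to 67822647, plus strand), the alpha chain of early embryonic basement membranes, stood at 3.06 ± 0.662 CPM per kb. Lamc1 (chromosome 1, 153218922 to 153332786, minus strand), the gamma chain of most laminin trimers, stood at 25.0 ± 3.79 CPM per kb. Lamb1 (chromosome 12, 31265234 to 31329644, plus strand), a beta chain that pairs with Lamc1 in the common laminins, stood at 13.6 ± 1.09 CPM per kb against 9.73 ± 0.915 for Lamb2. The Lamb1 level depends on the length used: its exons cover 9917 bases in all, but its longest transcript has 5784, which gives 23.2 CPM per kb. The order of Lama5 over Lama1 held without overlap in con of all 3 exposures. Lamb1 lay above Lamb2 without overlap in con of the 12-hour exposure and the early exposure, and their ranges overlapped in the late exposure.

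Several collagen IV and laminin transcripts rose in R2b, and others were not called. In the 12-hour exposure Col4a1, Col4a2, Col4a5 and Lamb1 were called higher, at 1.29 to 1.54 times the con level, and in the early exposure Lamc1 was called higher as well, with folds of 1.17 to 1.67 over these 5. No member was called lower in either exposure. In these counts, called means a Benjamini-Hochberg adjusted p (FDR) under 0.05 in edgeR's quasi-likelihood test over all genes. The 4 of 10 members called in the 12-hour exposure compare with 20.0% of 14882 genes called, 1518 of them higher and 1455 lower. The 5 of 10 called in the early exposure compare with 15.6% of 14979 genes, 1362 higher and 973 lower. Both numbers rest in part on litter 1: without it 434 and 322 genes were called in these exposures, and 0 and 3 members. The median log2 fold change of the 10 members was 0.40 and 0.27 in these exposures, against 0.01 and -0.01 for all genes tested.

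**Figure D1:**
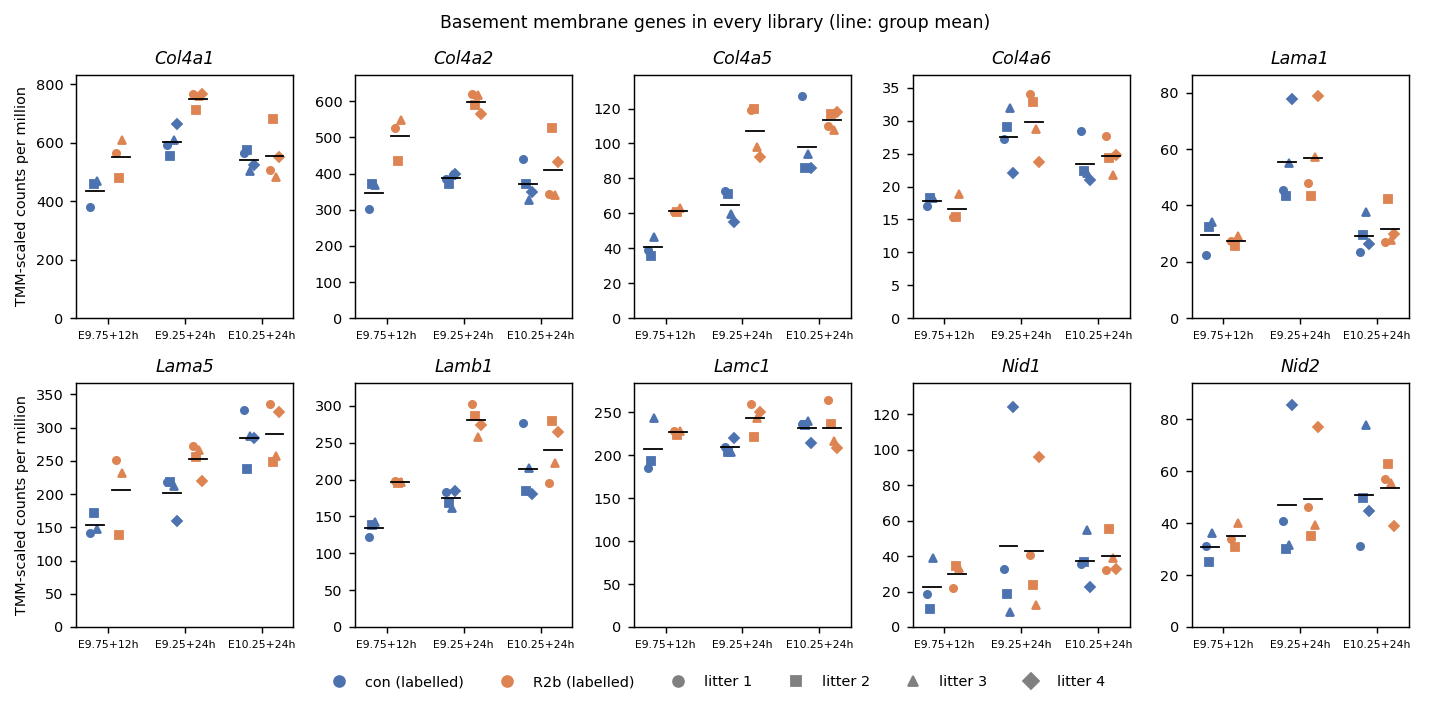
TMM-scaled CPM (counts per M counts of a library) of the 10 members in every library, on linear axes from 0, by exposure (x axis), labelled genotype (colour) and litter (symbol); black lines are group means. In the early exposure the R2b libraries lie above all con libraries for Col4a1, Col4a2, Col4a5, Lama5, Lamb1 and Lamc1, and litter 4 stands apart for Nid1 and Nid2. The share of all genes that separate in this way is not given here.

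Col4a2, whose chain joins 2 Col4a1 chains in the common trimer, stood at 303, 370 and 369 CPM in the con pools of litters 1 to 3 in the 12-hour exposure and at 526, 434 and 549 CPM in the R2b pools. Its early exposure values were 386, 370, 397 and 400 CPM in the con pools of litters 1 to 4, against 620, 589, 618 and 565 CPM in the R2b pools. Every R2b pool lay above every con pool in both exposures. For this gene and those below, the share of all genes whose groups do not overlap is not given here. In these exposures 35% and 32.2% of all genes had an unadjusted edgeR p under 0.05. The log2 fold changes were 0.56 (SE 0.12, edgeR FDR 0.00803) and 0.63 (SE 0.05, edgeR FDR 0.000295), with 3 of 3 and 4 of 4 litters higher. The early exposure call held without each litter and each library in turn (log2 0.61 to 0.67). The 12-hour exposure call was lost without litter 1 (log2 0.43, edgeR FDR 0.158).

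The fitted rise of Col4a1 was smaller than that of its partner. Its con pools stood at 381, 457 and 468 CPM in the 12-hour exposure and its R2b pools at 565, 479 and 609 CPM. The early exposure gave 590, 553, 608 and 663 CPM in con and 766, 710, 759 and 765 CPM in R2b. The groups did not overlap in either exposure. The log2 fold changes were 0.36 (SE 0.12, edgeR FDR 0.0476) and 0.32 (SE 0.06, edgeR FDR 0.00843), higher in 3 of 3 and 4 of 4 litters. In the 12-hour exposure this call was marginal. It was lost with the litter as a block (edgeR FDR 0.0841), without litter 1 (0.392), without litter 3 (0.173), and without any single library other than the R2b pool of litter 2 (0.0667 to 0.185). The call of the early exposure was lost without litter 1 (log2 0.30, edgeR FDR 0.0863).

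Col4a5, the X-linked chain mutated in Alport syndrome, stood at 39.2, 35.7 and 46.7 CPM in con and 60.5, 60.7 and 63.2 CPM in R2b in the 12-hour exposure. The early exposure gave 72.9, 71.3, 59.5 and 55.1 CPM in con and 119, 120, 98.0 and 92.1 CPM in R2b. The groups did not overlap in either exposure, and within each litter of the early exposure the log2 ratio was between 0.71 and 0.75. The fitted log2 fold changes were 0.62 (SE 0.12, edgeR FDR 0.00473) and 0.74 (SE 0.12, edgeR FDR 0.00719). Without litter 1 the 12-hour exposure value was 0.61 but was not called (edgeR FDR 0.095). Col4a6, its head-to-head neighbour, showed no such difference. It stood at 17.0, 18.2 and 18.2 CPM in con and 15.4, 15.4 and 18.8 CPM in R2b in the 12-hour exposure, and at 22.1 to 32.0 and 23.8 to 34.0 CPM in the early exposure. The groups overlapped, with log2 fold changes of -0.08 (SE 0.14, edgeR FDR 0.706) and 0.12 (SE 0.14, edgeR FDR 0.61). It was called only with the block and without litter 3 of the early exposure (0.21, edgeR FDR 0.0457).

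**Figure D2:**
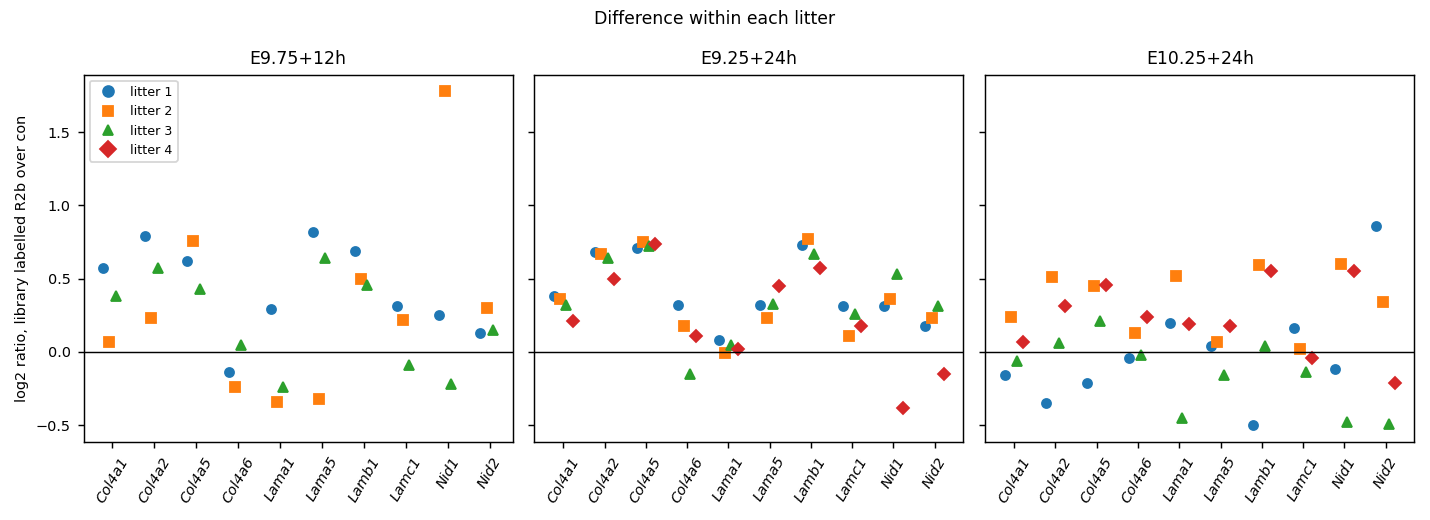
Log2 ratio of the library labelled R2b over the library labelled con within each litter (y axis) for the 10 members (x axis) in the 3 exposures; symbols and colours are litters and the line is a ratio of 1. Col4a2, Col4a5 and Lamb1 are above 0 in all 7 litters of the first 2 exposures, and in litter 1 of the late exposure they are below 0.

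Lamb1 was the laminin member with the clearest rise. It stood at 122, 138 and 143 CPM in con and 198, 196 and 197 CPM in R2b in the 12-hour exposure, and at 183, 168, 162 and 185 CPM in con and 303, 287, 258 and 274 CPM in R2b in the early exposure. The groups were well apart in both. The log2 fold changes were 0.57 (SE 0.09, edgeR FDR 0.00208) and 0.69 (SE 0.06, edgeR FDR 0.000768), with all litters higher. Without litter 1 the 12-hour exposure value was 0.50 and was not called (edgeR FDR 0.0716). Leaving out other litters, or any single library, kept the call in both exposures.

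Lamc1, which takes part in the same trimers as Lamb1, changed little. Its con pools stood at 185, 193 and 243 CPM and its R2b pools at 228, 224 and 228 CPM in the 12-hour exposure, so the groups overlapped (log2 0.16, SE 0.11, edgeR FDR 0.324). The con pools of the early exposure stood at 210, 204, 204 and 220 CPM and the R2b pools at 260, 221, 244 and 250 CPM. The highest con pool and the lowest R2b pool nearly met, and the log2 fold change of 0.22 (SE 0.05) was called (edgeR FDR 0.0259). The call was lost without litter 1, 2 or 3 (FDR 0.145, 0.0514 and 0.0963), and without the con pool of litter 1, 2 or 3 or the R2b pool of litter 1, 3 or 4 (FDR 0.0503 to 0.0777). With the litter as a block it was held (FDR 0.00115).

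The alpha chains among the members, Lama5 and Lama1, were not called in either exposure. Lama5 stood at 142, 172 and 148 CPM in con and 251, 138 and 231 CPM in R2b in the 12-hour exposure, where litter 2 went against the other litters (log2 0.45, SE 0.18, edgeR FDR 0.108). Without litter 2 it was called at a log2 of 0.75 (edgeR FDR 0.00174), and without the R2b pool of litter 2 at 0.67 (FDR 0.00129). The early exposure gave 218, 218, 212 and 160 CPM in con and 272, 255, 267 and 219 CPM in R2b. Those groups did not overlap, though the highest con pool and the lowest R2b pool nearly met. The log2 fold change of 0.33 (SE 0.11, edgeR FDR 0.0785) was called with the litter as a block (FDR 0.000121), without litter 4 (0.29, FDR 0.00793) and without the R2b pool of litter 4 (0.40, FDR 0.0463). Lama1 overlapped between genotypes in both. Its con pools ranged from 22.3 to 34.2 CPM and its R2b pools from 25.6 to 29.0 CPM in the 12-hour exposure (log2 -0.09, SE 0.16, edgeR FDR 0.717). The ranges in the early exposure were 43.5 to 77.9 and 43.2 to 78.7 CPM (log2 0.04, SE 0.22, edgeR FDR 0.924).

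With the litter as a block, 3 members were called higher in the 12-hour exposure (Col4a2, Col4a5 and Lamb1), against 5.79% of all genes tested. That number was 6 in the early exposure, the 5 above and Lama5, against 20.5% of all genes.

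Nid1 and Nid2, the nidogens, were not called, and their levels tracked marker sums of mesenchyme and endothelium from litter to litter. Nid1 (chromosome 13, 13437551 to 13512269, plus strand) stood at 18.5, 9.90 and 38.7 CPM in con and 22.0, 34.3 and 33.3 CPM in R2b in the 12-hour exposure. Its early exposure values were 32.9, 18.4, 8.57 and 124 CPM in con and 40.9, 23.6, 12.4 and 95.7 CPM in R2b. The spread between litters was thus far larger than that between genotypes. The log2 fold changes were 0.44 (SE 0.37, edgeR FDR 0.416) and -0.09 (SE 0.82, edgeR FDR 0.956). Nid1 of the 12-hour exposure was called without litter 3 (log2 1.0, edgeR FDR 0.0274) and without the con pool of litter 3 (1.08, FDR 0.0206). Nid2 (chromosome 14, 19751265 to 19811787, plus strand) ranged from 24.9 to 36.1 CPM in con and 30.8 to 40.2 CPM in R2b in the 12-hour exposure (log2 0.21, SE 0.15, edgeR FDR 0.348). Its ranges in the early exposure were 29.9 to 85.6 and 35.1 to 77.0 CPM, with the highest value of each group in litter 4 (log2 0.08, SE 0.36, edgeR FDR 0.908). Nid2 shares 437 exon bases with Rtraf on the opposite strand, which averaged 71.1 CPM, and whether the counting used strand is not stated. With litter 4 left out and the litter as a block, both nidogens were called higher in the early exposure, Nid1 at 0.39 (edgeR FDR 0.00184) and Nid2 at 0.24 (edgeR FDR 0.00591). The block fit of all litters of that exposure called 6086 of 14979 genes, so a call in such a fit was common. The number of all genes called without litter 4 is not given here.

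The relation of the members to carried-over tissue was examined over the 11 litters, each the mean of its con and R2b log2 levels, centred on its exposure. Nid1 followed the mesenchyme marker sum with Pearson's r of 0.98 (two-sided exact permutation p within exposures 0.000579, adjusted over 20 relations 0.0116) and Spearman's rho of 0.97 (exact permutation p 0.000868). Nid2 followed it with r of 0.85 (exact permutation p 0.0081, adjusted 0.0405) and rho of 0.91 (exact permutation p 0.00145). Without litters 3 and 4 of the early exposure, the farthest from the median, r was 0.91 for Nid1 and 0.84 for Nid2. Against the endothelium marker sum r was 0.98 and 0.88, with adjusted exact permutation p of 0.0116 and 0.0405. For the other 8 members r with the mesenchyme sum ran from -0.60 to 0.59 and with the endothelium sum from -0.60 to 0.66, and the adjusted exact permutation p of r was 0.234 or higher. Their rho ran from -0.35 to 0.72 with the mesenchyme sum and from -0.49 to 0.74 with the endothelium sum. Lamc1 had the highest rho of the 8 with both sums (exact permutation p 0.0246 and 0.0211, not adjusted). Without litters 3 and 4 of the early exposure its r was 0.63 and 0.77. The part of carried-over tissue in its call was not tested. Mesenchyme and endothelium sums moved together, so their parts were not separated.

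**Figure D3:**
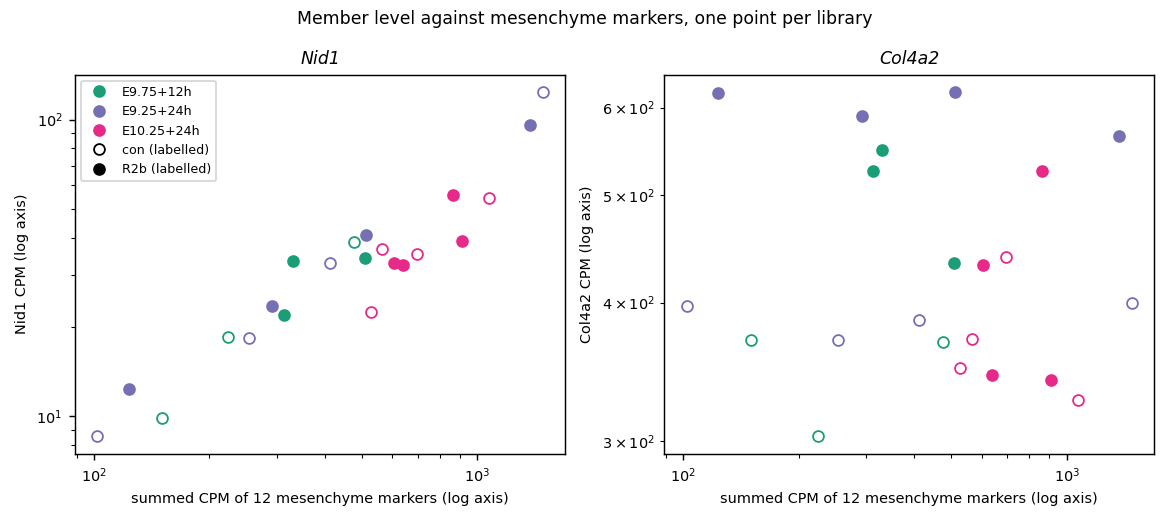
CPM of Nid1 (left) and Col4a2 (right) against the summed CPM of 12 mesenchyme markers, 1 point per library, both axes logarithmic; colours are exposures and filled points are labelled R2b. Nid1 climbs with the marker sum from 8.57 to 124 CPM. Col4a2 in the early exposure lies at 370 to 400 CPM in con and 565 to 620 CPM in R2b. Over litters, Pearson's r with the marker sum was 0.98 for Nid1 and -0.14 for Col4a2. Members other than the nidogens ran from -0.60 for Col4a6 to 0.59 for Lamb1. The part of carried-over tissue in the members' calls was not tested.

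Col3a1, a fibrillar collagen of mesenchyme, did not separate by genotype. It stood at 36.2, 23.4 and 115 CPM in con and 50.9, 112 and 61.8 CPM in R2b in the 12-hour exposure, and at 119, 57.4, 10.6 and 559 CPM in con and 150, 51.8, 19 and 501 CPM in R2b in the early exposure. The log2 fold changes were 0.39 (SE 0.47, edgeR FDR 0.587) and -0.04 (SE 1.15, edgeR FDR 0.987). The mesenchyme sum was 150 to 476 CPM in con and 313 to 508 CPM in R2b in the 12-hour exposure, higher in R2b in 2 of 3 litters, and 2 of its 12 genes, Dcn and Lum, were called higher there (log2 1.03 and 1.15, edgeR FDR 0.00851 and 0.00423). Their part in the rise of the members in the 12-hour exposure was not tested. None of the 12 was called in the early exposure by edgeR without the block. With the litter as a block 2 were called higher (Dcn and Lum) and 1 lower (Prrx2), with a median log2 of 0.14, and their part there was not tested either. Without the mesenchyme-rich litter 4 of that exposure the 5 members called there and Lama5 were called, with log2 fold changes of 0.36 for Col4a1, 0.67 for Col4a2, 0.73 for Col4a5, 0.73 for Lamb1 and 0.23 for Lamc1 (edgeR FDR 0.000595 to 0.0498). With all litters 2335 of 14979 genes were called, and the number without litter 4 is not given here.

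Tek, the endothelial angiopoietin receptor, went the other way from the members. It stood at 3.71, 5.18 and 6.90 CPM in con and 1.22, 2.85 and 1.74 CPM in R2b in the 12-hour exposure, with no overlap (log2 -1.41, SE 0.34, edgeR FDR 0.0158). Tek values of the early exposure were 7.41, 6.81, 3.72 and 21.3 CPM in con and 2.88, 2.62, 1.61 and 9.06 CPM in R2b, lower in 4 of 4 litters (log2 -1.27, SE 0.64, edgeR FDR 0.203). With the litter as a block that fall was called (edgeR FDR 1.96e-05). Of the 11 endothelium markers tested in the 12-hour exposure, Tek alone was called, and in the early exposure all 12 were below 0, with a median log2 of -0.87. The sum of the list was 19.2 to 72.1 CPM in con and 24.0 to 49.9 CPM in R2b in the 12-hour exposure, and 16.6 to 333 CPM in con and 16.4 to 150 CPM in R2b in the early exposure. Emcn was at 0 in the R2b pool of litter 3 in the early exposure, and all others of the list were detected in every library. The sum was higher in R2b in 1 of 3 and 1 of 4 litters. With the litter as a block 4 of the 12 were called lower in the early exposure. Endothelium also makes collagen IV and laminins, and its part in the members' values was not tested.

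Of 5 ratios of partner chains, 3 did not overlap between genotypes in the 12-hour and early exposures. The share of other gene pairs whose ratios separate in this way is not given here. Exact tests of these ratios did not pass 0.05 after adjustment, and in the 12-hour exposure none could, as 0.1 is the smallest p possible. These ratios were chosen after values of the members were seen. Per kb of exon, Col4a2 over Col4a1 was 0.899, 0.912 and 0.889 in con and 1.05, 1.02 and 1.02 in R2b in the 12-hour exposure. It was lower but again separate in the early exposure, at 0.739, 0.755, 0.737 and 0.681 in con and 0.913, 0.935, 0.919 and 0.833 in R2b. The groups did not overlap in either exposure, and each genotype kept within a narrow range. Lamb1 over Lamc1 was 0.553, 0.597 and 0.492 in con and 0.723, 0.729 and 0.718 in R2b in the 12-hour exposure, and 0.661 to 0.727 in con and 0.882 to 1.08 in R2b in the early exposure. Col4a6 over Col4a5 was lower in R2b, at 0.328 to 0.430 in con and 0.214 to 0.251 in R2b in the 12-hour exposure, and at 0.315 to 0.453 and 0.218 to 0.247 in the early exposure. All 3 ratios moved the same way in 7 of 7 litters. The ratios of the other pairs overlapped in both exposures. Lama1 over Lama5 was 0.184 to 0.271 in con and 0.128 to 0.219 in R2b in the 12-hour exposure, and 0.234 to 0.572 and 0.199 to 0.424 in the early exposure. Nid1 over Nid2 ran from 0.296 to 0.80 and from 0.481 to 0.831, then from 0.201 to 1.08 and from 0.236 to 0.926. For the 3 separate ratios, two-sided exact permutation tests of the log2 ratios gave 0.1 in the 12-hour exposure and 0.0286 in the early exposure each, the smallest values that 3 against 3 and 4 against 4 allow. Adjusted over the 15 ratio tests, these exact p-values were 0.25 and 0.143. A choice of exon length scales a ratio equally in both genotypes and leaves their difference as it is.

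**Figure D4:**
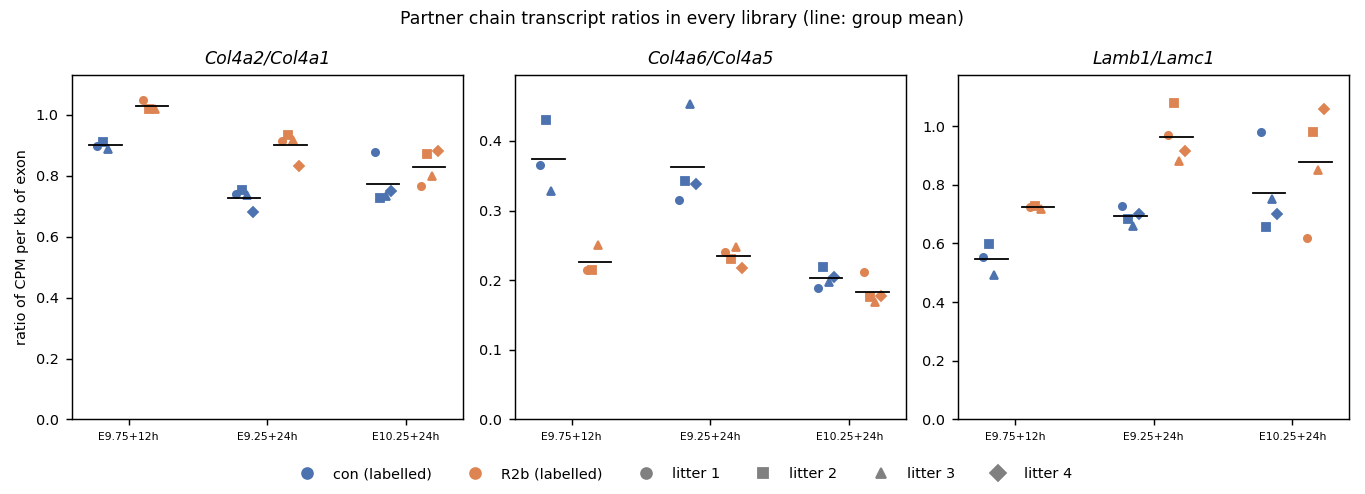
Ratio of CPM per kb of exon of 3 pairs of chains (y axes from 0) in every library, by exposure (x axis), labelled genotype (colour) and litter (symbol); black lines are group means. In the first 2 exposures the genotypes do not overlap in any of the 3 ratios, and in the late exposure they do, with litter 1 in reverse order. The share of other gene pairs that separate in this way is not given here.

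Several laminin chains outside the members rose too. Of 8 collagen IV and laminin genes outside the members 6 were in the table. Of these, 2 were called higher in the 12-hour exposure and 3 in the early exposure, none lower, with medians of 0.69 and 0.34. Over all genes 20.0% and 15.6% were called in these exposures. Lamb3, a beta chain of epithelial anchoring complexes, rose by a log2 of 1.60 and 1.55 (edgeR FDR 0.0137 and 0.0105) from levels of 0.830 and 1.21 CPM in con. Lama3, an alpha chain of the same complexes, was called in the early exposure, where con averaged 0.344 ± 0.0834 CPM and R2b 1.34 ± 0.421 CPM (SD, n = 4 each), a log2 of 1.94 (edgeR FDR 0.00811). Its value in the 12-hour exposure was 0.69 (edgeR FDR 0.285). A call in only 1 of the exposures shows no difference between them, and in the test of that difference 0 of 15688 genes were called. Lamb2, the beta chain that replaces Lamb1 in other laminins, rose by 0.70 and 0.42 (edgeR FDR 0.00505 and 0.0096). Without litter 1 the 12-hour calls of Lamb2 and Lamb3 were lost. That of Lamb3 was also lost without litter 3, without the con pool of litter 2 and without the R2b pool of litter 1. The mesenchymal and vascular alpha chains Lama2 and Lama4 were not called (log2 0.34 and 0.31, then 0.04 and 0.07). In the 12-hour exposure Lama4 was called without litter 3 and without the con pool of litter 3.

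Of 17 other basement membrane components in the table, 5 were called higher and 1 lower in the 12-hour exposure, and 7 higher in the early exposure. Their medians were 0.25 and 0.19. Among all genes 20.0% and 15.6% were called. Sparc, a collagen-binding matrix protein, rose from 401 ± 82.2 to 730 ± 31.9 CPM (SD, n = 3 each) and from 318 ± 81.7 to 621 ± 85.3 CPM (SD, n = 4 each), log2 values of 0.89 and 0.97 (edgeR FDR 0.00195 and 0.0118). Col18a1, the collagen that carries endostatin, rose by 0.65 and 0.75 (edgeR FDR 0.00412 and 0.00264). Agrn, the heparan sulfate proteoglycan agrin, rose by 0.53 and 0.46 (edgeR FDR 0.0303 and 0.00592), in 2 of 3 and 4 of 4 litters, and Hspg2, perlecan, by 0.62 and 0.50 (edgeR FDR 0.037 and 0.00428). Both 12-hour calls were lost with the litter as a block (edgeR FDR 0.0796 for Agrn and 0.0592 for Hspg2). Egflam, pikachurin, was called in the 12-hour exposure (0.61, edgeR FDR 0.0161) and not in the early exposure (0.19), and Tinagl1 in the early exposure (0.65, edgeR FDR 0.00876) and not in the 12-hour exposure (0.30). Frem1, which anchors epithelium to mesenchyme, fell by 0.48 on the log2 scale in the 12-hour exposure (edgeR FDR 0.00892), where all 3 R2b pools lay below the con pools.

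Of 17 receptors tested, 4 were called higher in each exposure and 1 lower in the 12-hour exposure, with medians of 0.14 and 0.04. The shares called over all genes were 20.0% and 15.6%. Bcam, a receptor for the laminin alpha 5 chain, rose from 269 ± 24.6 to 454 ± 69.3 CPM (SD, n = 3 each) and from 277 ± 36.2 to 614 ± 89.3 CPM (SD, n = 4 each), log2 values of 0.78 and 1.15 (edgeR FDR 0.00195 and 0.00123). Ddr1, a collagen receptor kinase, rose by 0.69 and 0.50 (edgeR FDR 0.00518 and 0.0473). Itgb4, the integrin subunit of hemidesmosomes, rose by 0.75 and 0.62 (edgeR FDR 0.0222 and 0.049), and Dag1, dystroglycan, by 0.35 and 0.32 (edgeR FDR 0.032 and 0.00561). Sdc1, a syndecan, fell by 0.35 in the 12-hour exposure (edgeR FDR 0.0427). The 12-hour calls of Itgb4, Dag1 and Sdc1 were lost with the litter as a block (edgeR FDR 0.0584, 0.0554 and 0.0861). That of Sdc1 was also lost without each of the 3 litters in turn, and those of Itgb4 and Dag1 without litter 1 or 3. The integrin subunits Itga3, Itga6 and Itgb1, common laminin receptors, were not called. Some alternatives called them, among them Itga6 in the early exposure with the block (log2 0.11, edgeR FDR 0.0145). Itga3 and Itgb1 were called in the 12-hour exposure without litter 2 or its R2b pool, and Itgb1 there with all libraries in one fit. Itgb1 was lower in R2b in the 12-hour exposure, averaging 331 ± 41.8 against 400 ± 3.79 CPM (SD, n = 3 each). Its groups did not overlap. Itga3 averaged higher in R2b there, 67 ± 13.4 against 54.9 ± 1.47 CPM (SD, n = 3 each), with overlap.

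Of 18 genes for collagen folding, modification, export and crosslinking, 5 were called higher in each exposure and none lower, with medians of 0.20 and 0.15. The shares called over all genes were again 20.0% and 15.6%. Plod1, a lysyl hydroxylase, rose by 0.80 and 0.78 (edgeR FDR 0.00184 and 0.00205). Loxl2, a lysyl oxidase that crosslinks collagen IV, rose by 0.43 and 0.74 (edgeR FDR 0.0106 and 0.000474), and Serpinh1, the collagen chaperone, by 0.37 and 0.25 (edgeR FDR 0.0351 and 0.0358). P3h1 and Sec24d were called in the 12-hour exposure (0.64 and 0.78, edgeR FDR 0.00432 and 0.00949), and Ppib and Crtap in the early exposure (0.27 and 0.45, edgeR FDR 0.0247 and 0.039). Mia3, the export receptor for collagen, was called only in the early exposure with the block (log2 -0.10, edgeR FDR 0.02).

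**Figure D5:**
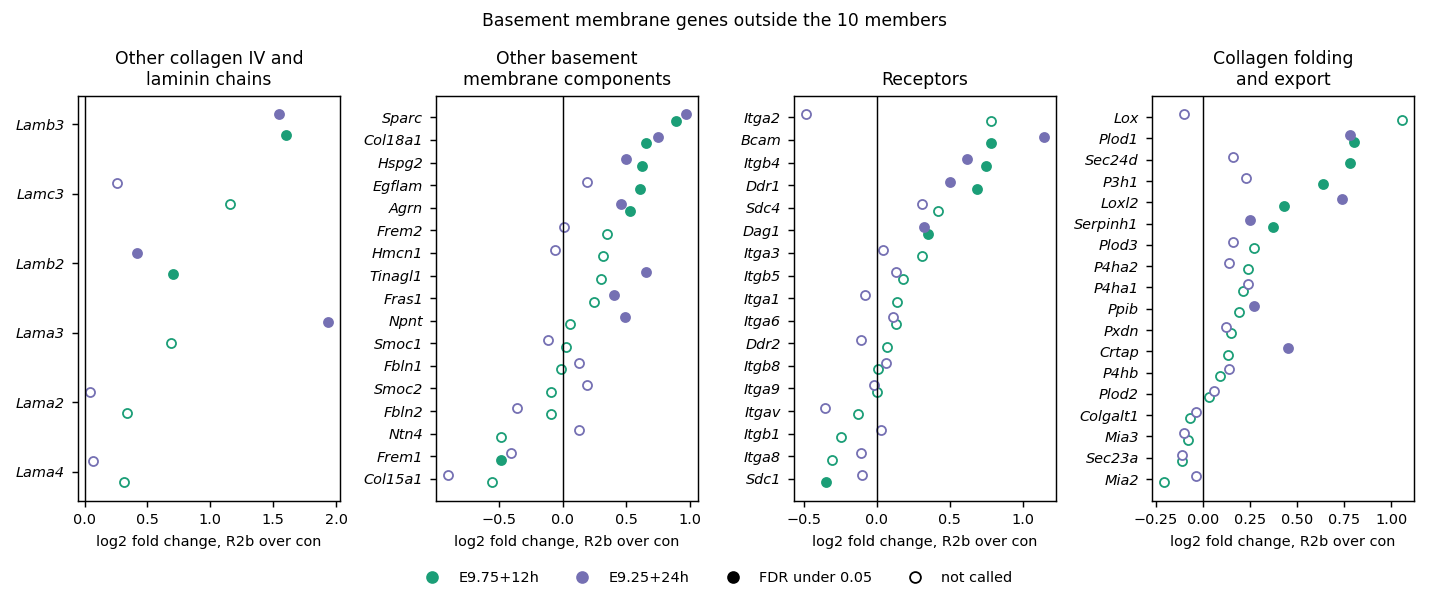
Log2 fold change of R2b over con (x axes) for each tested gene of the 4 lists (y axes), in the 12-hour exposure and the early exposure; filled points have an edgeR FDR under 0.05. All 6 further chains are above 0 in both exposures, and in the other lists the called genes are above 0 apart from Frem1 and Sdc1 in the 12-hour exposure.

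In the 12-hour exposure and the early exposure 20.0% and 15.6% of all genes were called. Over these 4 lists together, 18 of 58 genes tested were called in the 12-hour exposure and 19 of 58 in the early exposure. The number that remained called in the 12-hour exposure was 2 without litter 1 (Sparc and Plod1), 16 without litter 2 and 9 without litter 3. For the early exposure it was 7, 9, 11 and 18 without litters 1 to 4. With the litter as a block 13 of the 18 and all 19 remained. The calls lost in the 12-hour exposure were Hspg2, Agrn, Itgb4, Dag1 and Sdc1. Over all genes the block fits called 1775 of 14882 in the 12-hour exposure and 6086 of 14979 in the early exposure. Of those 6086 genes, 3071 were higher and 3015 lower. In the early exposure the block added 17 calls on the lists, some of them lower. Other components then had 9 higher and 3 lower, receptors 7 and 1, and collagen folding and export genes 11 and 2.

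No member was called in the late exposure, where 0% of 15203 genes were. No member and 175 genes had an unadjusted edgeR p under 0.05. DESeq2 gave 0 members and 0 genes called, and 178 genes under that unadjusted p. Log2 fold changes of the members ran from 0.01 for Lamc1 to 0.22 for Col4a5 (SE 0.12, edgeR FDR 1), with a median of 0.10 against 0.00 over all genes. Under the con label Col4a2 measured 440, 371, 327 and 349 CPM in litters 1 to 4, and under the R2b label 344, 526, 341 and 433 CPM. Col4a5 measured 127, 85.7, 93.9 and 86.2 CPM under the con label and 110, 117, 108 and 118 CPM under the R2b label. Lamb1 measured 277, 185, 216 and 180 CPM under the con label and 196, 279, 222 and 265 CPM under the R2b label. In all 3 genes litter 1, whose transgene reads go against the labels, had the higher value in the library labelled con, which was the highest of that label. Col4a1 ranged from 502 to 575 and from 482 to 680 CPM, Lama5 from 237 to 327 and from 248 to 336 CPM, and Lamc1 from 215 to 240 and from 209 to 264 CPM. Col4a6, Lama1, Nid1 and Nid2 overlapped between labels as well.

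Left out with the litter as a block, litter 1 gave 1 called member in the late exposure, Col4a5 at a log2 of 0.39 (edgeR FDR 0.0327), where 2.79% of all genes were called higher. In that fit Col4a2 was at 0.31 (edgeR FDR 0.0908) and Lamb1 at 0.41 (edgeR FDR 0.0862). Without litters 1 and 3, in a block fit on the 2 litters whose labels the transgene reads bear out, 4 members were called higher, against 3.70% of all genes. These were Lamb1 at 0.60 (edgeR FDR 0.00962), Col4a5 at 0.47 (edgeR FDR 0.0152), Nid1 at 0.60 (edgeR FDR 0.018) and Col4a2 at 0.43 (edgeR FDR 0.0267). Without the block, 0 members were called in either case. With 2 litters that fit rests on the spread pooled over genes. Of the markers that Nid1 follows, those of mesenchyme had a median log2 of 0.32 in that block fit, with 2 of 12 called higher, and those of endothelium 0.60, with 9 of 12 above 0 and 0 called. Their part in its call was not tested. Of the 4 lists, 0 of 58 genes were called in the late exposure, 5 with the block and without litter 1, and 10 with the block and without litters 1 and 3. Over all genes those block fits called 614 of 15195 and 877 of 15200. The smallest p of each list in the fit of all litters belonged to Lama3 (log2 -0.43), Npnt (0.32), Bcam (0.28) and P3h1 (0.11), all with an edgeR FDR of 1.

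The partner ratios showed the same pattern by litter. In the late exposure Col4a2 over Col4a1 per kb was 0.878, 0.727, 0.735 and 0.749 under the con label and 0.766, 0.872, 0.799 and 0.883 under the R2b label. Litters 2, 3 and 4 were higher under the R2b label and litter 1 was lower (exact permutation p 0.2 over all litters, adjusted over the 15 ratio tests 0.333). Lamb1 over Lamc1 was 0.980 and 0.619 in litter 1, and 0.657 to 0.753 against 0.852 to 1.06 in the other litters.

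The effects of different exposures were compared in a fit of all 22 libraries. From the 12-hour exposure to the early exposure no member was called, where 0% of 15688 genes were called, 0 members and 1908 genes had an unadjusted edgeR p under 0.05, and DESeq2 called 0 members and 99 genes. The differences ran from -0.51 (SE 0.97) for Nid1 to 0.22 (SE 0.20) for Col4a6. From the early exposure to the late exposure 0% of genes and 0 members were called as well, with 3 members and 1344 genes at an unadjusted edgeR p under 0.05, and DESeq2 called 0 members and 73 genes. Those 3 members were Col4a2 (difference -0.48, SE 0.17, edgeR FDR 0.395), Col4a5 (-0.52, SE 0.17, edgeR FDR 0.342) and Lamb1 (-0.52, SE 0.16, edgeR FDR 0.329). Each of these had a smaller R2b excess in the late exposure by labels, which include litter 1, and both comparisons share the early exposure libraries.

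The genes whose log2 ratios of R2b over con, litter by litter, were nearest to those of Col4a1 were Rreb1, Nynrin, Arid3a, Rabep2 and Prr5, with a root mean square difference of 0.0724 to 0.0939 on the log2 scale over 11 litters. Among 10280 genes ranked, its partner Col4a2 came 1488th (0.246). This difference counts a gap in size, so a gene that moves in parallel by larger steps ranks lower. Within each exposure, the litters had the same order by ratio in Col4a1 and Col4a2. In the late exposure, by labels, the log2 ratios of Col4a1 were -0.16, 0.24, -0.06 and 0.07 in litters 1 to 4. Those of Col4a2 were -0.35, 0.51, 0.06 and 0.31. Likeness in order alone was not ranked. Nearest to Lamc1 were Iqgap1, Igf2r, Bloc1s1, Mta3 and Pxdn (0.0833 to 0.0921), and its partner Lamb1 came 8861st (0.489).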

How the data were processed

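Otocyst epithelium was pooled by genotype within a litter, and per the labels' protocols poly(A) RNA was selected and libraries were stranded. The authors deposited raw read counts per Ensembl gene, whole numbers that sum to 18.7 to 28.2 M per library. Novoalign 2.08.03 and mm10 are named in the submitters' processing notes; the counting tool, its use of strand and any filter are not given in the sources used here, and the lowest gene total in the table was 100 counts. Of 24 count columns, 22 were joined to a sample by the library number in the titles. The other 2 were not used, and 2 samples of the 12-hour exposure are not analysed here.

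Symbols, positions and exon lengths came from GENCODE M21 (GRCm38). CPM used TMM factors over all 22 libraries. Tests used edgeR 4.0.16 under R 4.3.3 (filterByExpr, TMM, glmQLFit, glmQLFTest), each exposure alone with 2 group means, Benjamini-Hochberg adjustment over all genes and a threshold of 0.05. Differences of effects were contrasts of 6 group means. Standard errors came from the F statistic. Carry-over relations and ratios used scipy 1.17.1.

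The members and lists were chosen with earlier results of these data known. A gene of these lists is not reported here and was left out of their counts. Named were all members, Col3a1, Tek, Ighg1, and up to 5 called genes per list and exposure by smallest FDR, or the gene with the smallest p. Genes named beyond this (Lama2, Lama4, Itga3, Itga6, Itgb1, Mia3, Dcn, Lum, Prrx2, Emcn) were chosen after their values were seen. Alternatives were median-of-ratios factors, no filter, a mean CPM of at least 1, DESeq2 1.42.0, all libraries in one fit, the litter as a block, and each litter or library left out. The labels give the litter of each pool. Same-litter deviations correlated at 0.46 to 0.81 in the early exposure, at -0.28 to -0.13 in the 12-hour exposure, and at -0.14, 0.40, 0.35 and 0.28 in litters 1 to 4 of the late exposure. Between pools of different litters the values were -0.59 to 0.21, -0.12 to 0.34 and -0.36 to 0.32 in these exposures. In the 12-hour exposure same-litter values thus lay below those of different litters, and the pairing there, with its litter counts and block fits, rests on the labels alone.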

Additional observations from a re-analysis of the deposited data

Results flagged for a closer look

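In 8 of 68 groups of 4 libraries tested, of members and marker sums, 1 library lay far from the other 3 by Dixon's test, where chance flags about 1 in 20. Col4a1 in the early exposure was at 710 CPM in the R2b pool of litter 2, below 759 to 766 CPM in the others, and Lama5 was at 160 CPM in the con pool of litter 4, below 212 to 218 CPM. In litter 4 of that exposure Tek was at 9.06 CPM in R2b, and in con the endothelium markers summed to 333 CPM and the blood markers to 1665 CPM, each the highest of its group. In the late exposure the library labelled R2b of litter 2 had the lowest otic marker sum of its label, 5290 CPM. The library labelled R2b of litter 3 had the highest blood marker sum, 4927 CPM, and the library labelled con of litter 3 the highest hindbrain marker sum, 155 CPM.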

How the results depend on the processing

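The number of members called in the 12-hour exposure was 4, and 3 with the replicate block, with median-of-ratios factors and without a filter, each time without Col4a1. Leaving out litters or libraries gave 0 to 5, with 0 without litter 1. In the early exposure it was 5, and 6 with the replicate block or DESeq2, 4 with all libraries in one fit (without Lamc1), and 3 to 8 with litters or libraries left out. In the late exposure it was 0, and 0 to 1 with 1 litter or library left out, and 4 with the block and without litters 1 and 3. For the differences between exposures it was 0 under every alternative run. Col4a2, Col4a5 and Lamb1 kept their direction in the first 2 exposures under all alternatives run.

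Nid1 in the early exposure turned from -0.09 to 0.12 with the replicate block, and its difference from the early exposure to the late exposure to -0.05, as did that of Nid2 to -0.02; the cause was not tested. With litters or libraries left out, these uncalled values crossed 0. In the 12-hour exposure Lama1 ran from -0.27 to 0.04 and Nid1 from -0.03 to 1.08. In the early exposure Lama1 ran from -0.16 to 0.24, Nid1 from -0.83 to 1.11 and Nid2 from -0.22 to 0.53. In the late exposure the ranges were -0.07 to 0.12 for Col4a1, -0.05 to 0.33 for Lama1, -0.04 to 0.13 for Lama5, -0.06 to 0.06 for Lamc1, -0.10 to 0.36 for Nid1 and -0.12 to 0.36 for Nid2. For the difference between the first 2 exposures they were -0.15 to 0.04 for Col4a1, -0.05 to 0.17 for Col4a2, -0.41 to 0.08 for Lama5, -0.08 to 0.12 for Lamc1 and -0.20 to 0.05 for Nid2. For the difference of the 24 hour exposures they were -0.12 to 0.03 for Col4a6, -0.09 to 0.29 for Lama1, -0.26 to 0.45 for Nid1 and -0.21 to 0.26 for Nid2.

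Depth was not limiting for the members, whose lowest count in a library was 161.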
